A study of Homo sapiens with 6 samples.

Results

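The array labelled TANGO siRNA was compared with the array labelled MATE2 siRNA, 2 of the 6 arrays of a set made from HSC3 cells. HSC3 is an established human line grown from a tongue squamous carcinoma. A probe entered the comparison when it measured a gene and its spot was flagged good by the scanner on both arrays. Of 53103 gene probes kept, 26993 met this rule, and 12745 genes with a current symbol were measured by such a probe. Both arrays are single-colour CodeLink Human Whole Genome Bioarrays hybridized with Cy5-labelled RNA from HSC3 cells transfected with siRNA, against TANGO on the first and against MATE2 on the second. The other 4 arrays come from HSC3 cells given MIA, MIA2 or LEMD1 siRNA and from control cells, which the deposited design describes as given a control siRNA and the study's methods as untreated. All groups share the cell line and the platform. Each holds 1 array, so a difference between the arrays has no replicate error, no test was made, and every ratio describes these hybridizations alone.

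An siRNA guides the cleavage of a matching messenger RNA, which lowers the message of its target. TANGO is an alias of MIA3, which encodes a protein of the endoplasmic reticulum exit site that helps load bulky cargo such as collagen into COPII-coated carriers. MATE2 is an alias of SLC47A2, a transporter of the multidrug and toxin extrusion family that exports organic cations from the cell, best known in the kidney. The labels name the targets by these words and give no gene identifier.

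The targets did not settle the labels. No probe on the array carried the symbol MIA3, so no value could be given for that message. Of the probes kept, 28245 had no gene and 898 several, and whether any of them measures MIA3 was not tested. SLC47A2 had a normalized signal of 58.9 on the TANGO siRNA array and 79.6 on the MATE2 siRNA array, against 1334 to 1703 on the other 4 arrays. The signal is the brightness of a spot over its local background, put on the same distribution on all 6 arrays. SLC47A2 was thus low on both arrays, at a log2 ratio of TANGO over MATE2 of -0.43, and did not tell them apart. Of the other genes targeted in the set, MIA was near background on all 6 arrays. MIA2 read 136 on the TANGO siRNA array and 238 on the MATE2 siRNA array, with 138 to 175 elsewhere, and a second MIA2 probe was near background on every array.

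LEMD1, a cancer-testis antigen with a LEM domain, read 3192 on the TANGO siRNA array and 1011 on the MATE2 siRNA array. With MIA siRNA it read 195 and in the control 278, and the spots with MIA2 and LEMD1 siRNA were near background. LEMD1 was therefore highest on the TANGO siRNA array, 3.16-fold over MATE2. SRPX2, a secreted protein with sushi repeats, was good on the TANGO siRNA array at 102 and near background on the MATE2 siRNA array at 28.3, which makes it at least 3.24-fold higher on TANGO. The other 4 arrays read 153 to 1411 for SRPX2, all above both.

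The cells on both arrays carried squamous markers. Of 10 such markers, 8 had a probe, and all 8 were flagged good on both arrays. Their signals summed to 13661 on the TANGO siRNA array and 21571 on the MATE2 siRNA array. Single markers went both ways, with KRT5, a basal keratin, at 4837 and 3283 and its partner KRT14 at 309 and 2812. Of 6 fibroblast markers, 4 were flagged good on both arrays and summed with the rest to 542 on TANGO and 695 on MATE2, with COL3A1 and DCN near background. Of 5 endothelial markers, 2 were good on TANGO and 1 on MATE2, with sums of 565 and 612 and with CDH5, KDR and TEK near background. Of 4 leukocyte markers with a probe, 2 were good on each array, with sums of 262 and 191 and with PTPRC near background. Of 4 melanocyte markers, 1 was good on each array, with sums of 184 and 219.9 and with MLANA and DCT near background.

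Both arrays stood apart from the rest of the set. Among 23444 probes good on all 6 arrays, 2247 (9.58%) differed at least 2-fold between TANGO and MATE2. Pairs that set either array against any of the other 4 differed at 2297 to 3137 probes, and pairs among the other 4 at 214 to 1564. The TANGO and MATE2 siRNA arrays were by this count slightly closer to each other (9.58%) than either was to any other array (9.8% to 13.4%), and further apart than any pair among the other 4. The robust SD of the log2 ratio gave another order, at 0.48 for TANGO over MATE2, 0.45 for MATE2 over MIA siRNA and 0.50 for MIA2 siRNA over control. The labels give no batch. Whether treatment, culture or handling set these arrays apart was not tested and cannot be told apart with 1 array each. Good spots numbered 29147 on the TANGO siRNA array and 29639 on the MATE2 siRNA array, within the 27545 to 30628 of the set.

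**Figure D1:**
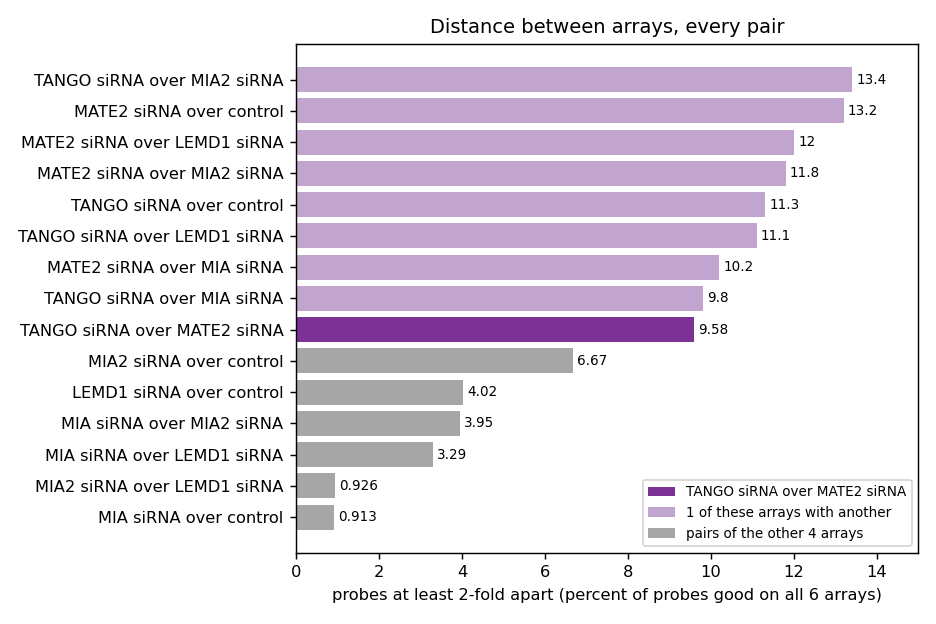
Percent of the 23444 probes good on all 6 arrays that differ at least 2-fold, for each of the 15 pairs of arrays. The TANGO siRNA over MATE2 siRNA pair (dark bar) stands at 9.58%, below the 8 pairs of either array with another (light purple bars) and above the 6 pairs among the other 4 arrays (grey bars).

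Across the 26993 probes, 1244 (4.61%) were at least 2-fold higher on the TANGO siRNA array and 1293 (4.79%) at least 2-fold lower, 9.4% either way. Among the 12745 named genes, each taken by its brightest good probe, 855 (6.71%) were higher and 750 (5.88%) lower, 12.6% either way. These shares are the background against which each gene group below is read. The median log2 ratio over named genes was 0.04, so somewhat more genes lay above 0 than below it. Among them, 104 genes were at least 4-fold higher and 81 at least 4-fold lower. With normexp background correction at an offset of 50 the counts were 498 higher and 447 lower genes. Adding 50 to the signal, with background subtracted as in the main comparison, lowered the counts by a similar amount. Many calls near 2-fold thus rest on how dim signals are treated, and these settings do not single out the background subtraction.

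**Figure D2:**
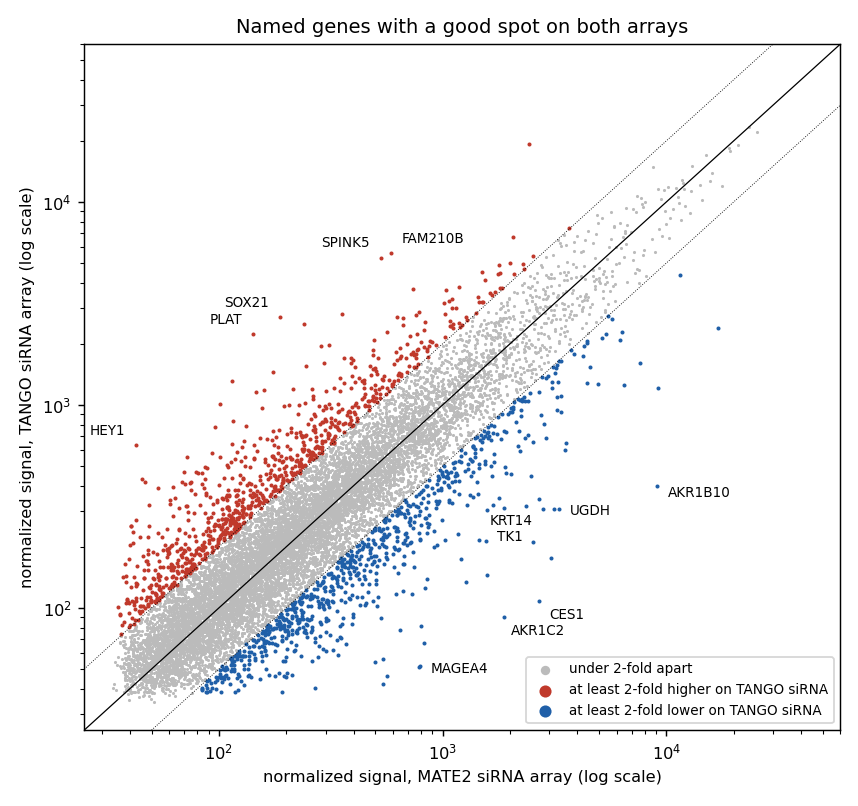
Normalized signal on the TANGO siRNA array (vertical, log scale) against the MATE2 siRNA array (horizontal, log scale) for the 12745 named genes, 1 point a gene. The solid line marks equal signal and the dotted lines a 2-fold difference, with 855 genes above (red) and 750 below (blue).

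The position of both arrays among the other 4 was then read gene by gene, and for most genes neither stood apart. There were 767 higher genes with a good spot throughout the set, and in 217 of them (28.3%) MATE2 lay under every one of the other 4 by 2-fold or more while TANGO was not apart. In 104 (13.6%) it was TANGO that lay above the other 4 with MATE2 not apart, and in 432 (56.3%) neither array was apart by 2-fold. Of 691 lower genes, TANGO alone stood below the other 4 in 115, MATE2 alone stood above them in 116, and neither was apart in 447 (64.7%). In 3 lower genes, CABYR, UBE2C and UGDH, TANGO stood below and MATE2 above. Over all 11449 genes good on 6 arrays, TANGO was above the other 4 in 2.34% and below in 3.14%, and MATE2 above in 2.42% and below in 4.97%.

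Among bright genes, the largest difference toward TANGO was that of PLAT, tissue plasminogen activator. Its signal was 2223 on the TANGO siRNA array and 142 on the MATE2 siRNA array, with 1221, 249.4, 376 and 1770.4 on the MIA, MIA2, LEMD1 siRNA and control arrays. The TANGO value lay close to control, and the MATE2 value was the lowest of the 6, 15.7-fold under TANGO. HEY1, a transcriptional repressor downstream of Notch, read 631 against 42.5, and SOX21, a SOX family factor of stratified epithelium, 2697 against 188. For both genes the other 4 arrays lay under the MATE2 value, at no more than 13.6 for HEY1 and at 46.3 to 65.4 for SOX21, and at least 1 of those spots was not flagged good.

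Another 2 of the 12 largest were low on MATE2 alone. HMGA2, an architectural chromatin protein, read 1318 on the TANGO siRNA array and 114 on the MATE2 siRNA array, against 959 to 2361 elsewhere. F8A1, a gene with near-identical copies on the X chromosome that a probe may not separate, read 2504 and 241, against 2664 to 2935. In both the MATE2 siRNA array lay below every other array.

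The remaining 7 were high on TANGO, with the TANGO signal above every other array. SPINK5, a serine protease inhibitor of the epidermis, read 5307 on the TANGO siRNA array and 528 on the MATE2 siRNA array, against 73.2 to 128 elsewhere. FAM210B, a mitochondrial membrane protein, read 5575 and 586, with 1025 to 1369 on the others. PTPRZ1, a receptor tyrosine phosphatase, read 1449 and 175, with 72.9 to 249.03 on the others. CAPNS2, ASB2, SYT8 and ESRG had log2 ratios of 3.32, 3.26, 3.16 and 3.02, each from a TANGO signal between 418 and 1016.

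Toward MATE2 the largest difference was CES1, a carboxylesterase that hydrolyses drugs and lipids. It read 108 on the TANGO siRNA array and 2689.7 on the MATE2 siRNA array, and 101, 118, 113 and 91.9 on the MIA, MIA2, LEMD1 siRNA and control arrays. MATE2 alone was high, 24.9-fold over TANGO, and a second CES1 probe gave 66.1 on TANGO and 4501 on MATE2. LINC01210, SLC45A2, CDKN1C, NPVF and GTSF1 had the same form, with a MATE2 signal at least 2-fold above every other array and ratios of TANGO over MATE2 from -4.11 to -3.45 on the log2 scale. CDKN1C, an inhibitor of cyclin-dependent kinases, read 42.0 on the TANGO siRNA array and 541 on the MATE2 siRNA array, against 55.5 to 111 elsewhere.

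MAGEA4, a cancer-testis antigen on the X chromosome, was low on both arrays but unequally. It read 51.6 on the TANGO siRNA array and 792 on the MATE2 siRNA array, against 5161 to 5839 on the other 4. MMP7, matrilysin, was low on TANGO, at 212, with 2525 on the MATE2 siRNA array and 1189 to 7327 elsewhere. CABYR, a calcium-binding protein of the sperm tail, read 46.3 on TANGO and 567 on MATE2, against 141 to 205 elsewhere, so the arrays departed to opposite sides. AKR1B10, AKR1C2 and UGDH complete the 12 and are described with the redox genes.

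**Figure D3:**
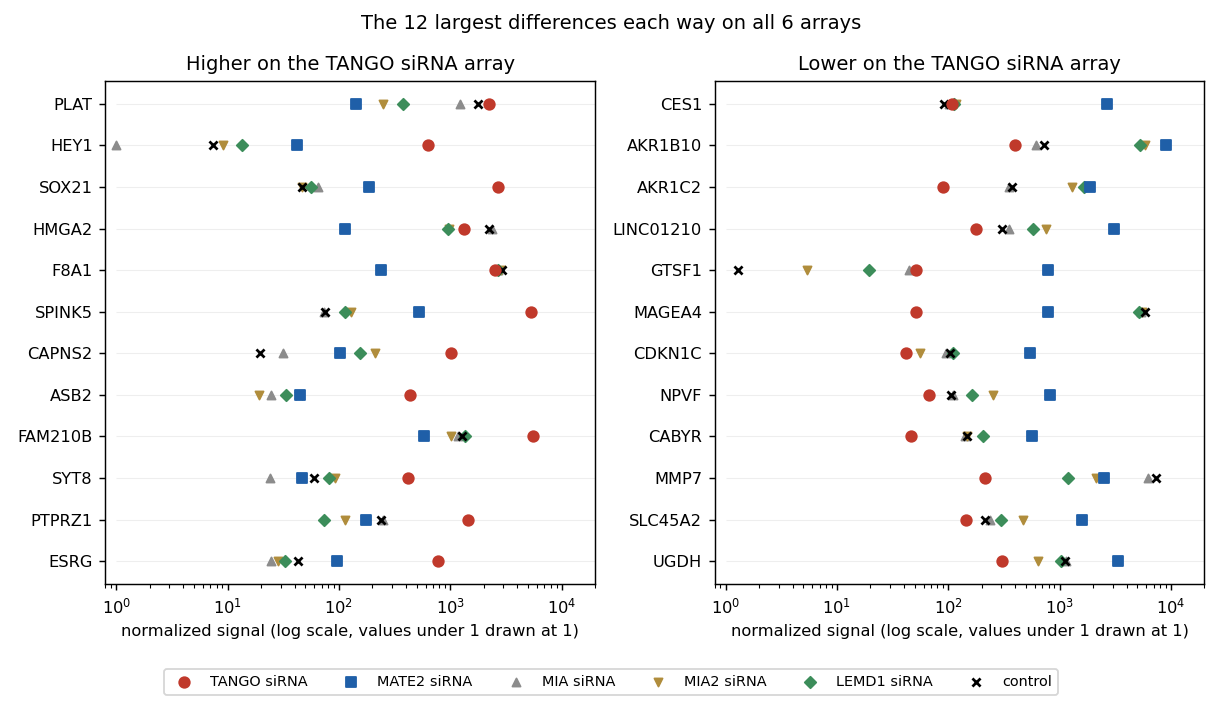
Normalized signal (log scale) on all 6 arrays for the 12 genes with the largest difference each way among bright genes, 1 row a gene and 1 symbol an array. On the left HMGA2 and F8A1 show a low MATE2 value and SPINK5 and FAM210B a high TANGO value, and on the right CES1 shows a high MATE2 value with the other 5 arrays at 91.9 to 118.

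Some genes were good on 1 array and near background on the other, so the ratio has only a bound. For 2045 such probes toward TANGO and 2541 toward MATE2, the bound reached 2-fold at 405 and 443. CLCA2, a p53-responsive membrane protein of stratified epithelium, was at least 23.4-fold higher on TANGO, at 735 against 18.8. SH3PXD2A-AS1, an antisense RNA, was at least 19.0-fold higher and PDGFC, a platelet-derived growth factor, at least 15.3-fold higher. PTGR1, a reductase of prostaglandins and reactive aldehydes, was at least 63.6-fold lower on TANGO, at 17.6 against 1995 on MATE2 and 836 to 1883 on the other 4 arrays. ANXA10, an annexin, was at least 34.6-fold lower, at 30.4 against 1087, and TSPAN7, a tetraspanin, at least 25.7-fold lower, at 33.5 against 861.

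The transcription factor NRF2 is held down by KEAP1 and, when released, activates genes for glutathione and thioredoxin metabolism and for the reduction of aldehydes and quinones through antioxidant response elements. Genes of this group, with the aldo-keto reductases, were lower on the TANGO siRNA array than on the MATE2 siRNA array. Of 24 measured, 17 (70.8%) were at least 2-fold lower and 1 was higher, with a median log2 ratio of -1.52 against 0.04 for all named genes. On the log2 scale the list median lay 0.99 below the median of the other 4 arrays on TANGO and 0.62 above it on MATE2. Of the other 4 arrays, MIA2 siRNA stood at 0.42, LEMD1 siRNA at 0.24, MIA siRNA at -0.17 and control at -0.16. These 4 are part of the median they are set against, so for each gene they lie on both sides of it by construction.

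AKR1B10, a reductase of retinal and lipid aldehydes, read 398 on the TANGO siRNA array and 9064 on the MATE2 siRNA array. The other arrays fell into a low pair, 618 on MIA siRNA and 720.2 on control, and a high pair, 5868 on MIA2 siRNA and 5294 on LEMD1 siRNA. TANGO was the lowest array and MATE2 the highest, 22.8-fold apart. AKR1C2, a reductase of steroids whose close relatives may share its probe, read 89.8 and 1874, with 352 on MIA siRNA, 1286 on MIA2 siRNA, 1657 on LEMD1 siRNA and 374 on control. AKR1C3 read 1206 on TANGO and 9151 on MATE2, against 4393 to 9151 elsewhere.

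UGDH, which makes the UDP-glucuronate used in conjugation, read 306 on the TANGO siRNA array and 3325 on the MATE2 siRNA array, with 639 to 1138 on the others, and so departed on both sides. GCLM, the modifier subunit of the enzyme that starts glutathione synthesis, read 447 and 2479, against 803 to 1072. GCLC, the catalytic subunit of the same enzyme, read 87.4 and 180, against 667 to 2392, both below the rest. TXNRD1, thioredoxin reductase, read 113 and 437, against 473 to 771, so TANGO was low and MATE2 was near the others. NQO1, a quinone reductase, read 164 and 671, with 905 to 1930.3 elsewhere, both below the rest. GSTM3, a glutathione transferase, read 601 and 3516, with 122 to 204 elsewhere, both above the rest.

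GSTA4, the glutathione transferase that clears hydroxynonenal, ran the other way, at 2278 on TANGO and 565 on MATE2. GSTA4 read 131 on MIA siRNA, 1231 on MIA2 siRNA, 861 on LEMD1 siRNA and 103 on control. KEAP1 was at 0.27 and the NRF2 partner MAFG at -0.01 on the log2 scale, within 2-fold. PTGR1 is also known as an NRF2 target but was not in the list.

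Dividing cells raise a set of mitotic genes late in the cycle, many through CCAAT boxes and the CHR element bound by the DREAM and MuvB complexes. Mitotic genes were lower on TANGO. Of 39 measured, 24 (61.5%) were at least 2-fold lower and 2 higher, with a median of -1.22. TANGO stood at least 2-fold below each of the other 4 arrays for 21 of the 39, and MATE2 for 3. The list median was 1.75 below that of the other 4 arrays on TANGO and 0.21 below it on MATE2, on the log2 scale.

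UBE2C, the ubiquitin-conjugating enzyme of the anaphase-promoting complex, read 308 on the TANGO siRNA array and 3143 on the MATE2 siRNA array. It was low on TANGO and high on MATE2 against 817 to 1421 elsewhere. SPC25, a subunit of the NDC80 kinetochore complex, read 56.0 on TANGO and 540.0 on MATE2, against 523 to 619, and CDK1, the kinase that drives mitosis, read 204 and 944, against 883 to 1250.2. For both, MATE2 lay with the other arrays. AURKB, the kinase of the chromosomal passenger complex, read 135 and 1267, but a second AURKB probe read 195 and 136.

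CCNB2, a B-type cyclin, read 188 and 739.8, and KIF15, a spindle motor, 54.9 and 193. BIRC5, survivin, read 76.3 on TANGO and 241 on MATE2, against 245 to 763 elsewhere. Not all mitotic genes took part. MKI67, the proliferation antigen, read 1101 on TANGO and 1165 on MATE2, PLK1 1169 and 1040.2, and FOXM1 206 and 226. BUB3, a checkpoint protein, was higher on TANGO, at 1006 against 309.7, as was CDC25B, a phosphatase that activates cyclin-dependent kinases, at 295 against 139.

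**Figure D4:**
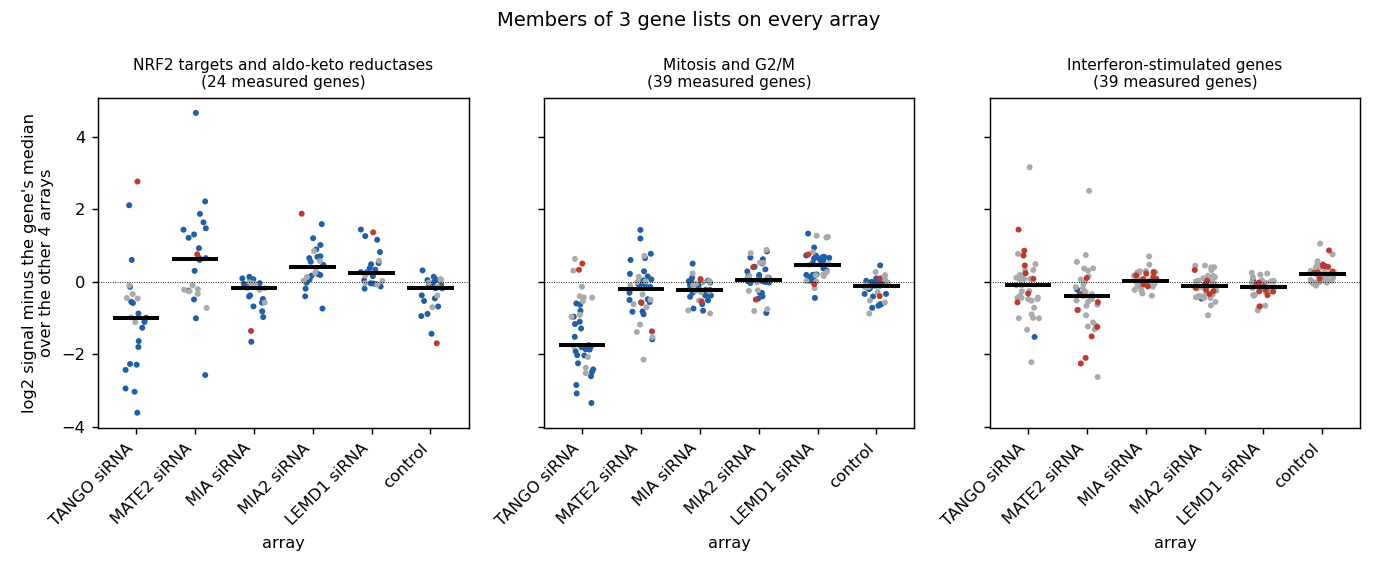
Log2 signal of each measured member less its median over the other 4 arrays (vertical), by array (horizontal), for 3 gene lists. Points are genes, coloured by whether TANGO is at least 2-fold lower (blue) or higher (red) than MATE2, and bars are list medians, at -0.99 and 0.62 for the NRF2 list and -1.75 and -0.21 for the mitosis list on the TANGO and MATE2 siRNA arrays.

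The promoters below are shown because the motifs usually tied to these programmes can be read in them. They are the 250 bases before the annotated start from RefSeq, build GRCh38.p14, on the strand of the gene, with the match in capitals. The first 4 belong to lower mitotic genes and hold the CHR letters TTTGAA on either strand. SPC25 lies at chr2:168890431-168890680 (minus strand), CDK1 at chr10:60778081-60778330 (plus), CCNB2 at chr15:59104896-59105145 (plus) and KIF15 at chr3:44761544-44761793 (plus). The last 2 belong to lower NRF2 list genes and hold the antioxidant response core TGACNNNGC on either strand, GCLM at chr1:93909431-93909680 (minus) and TXNRD1 at chr12:104215529-104215778 (plus).
SPC25: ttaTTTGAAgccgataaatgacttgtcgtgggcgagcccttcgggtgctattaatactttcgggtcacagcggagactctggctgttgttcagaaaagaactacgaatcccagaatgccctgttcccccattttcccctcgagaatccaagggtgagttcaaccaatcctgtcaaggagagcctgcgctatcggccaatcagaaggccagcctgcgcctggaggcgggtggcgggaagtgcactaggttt
CDK1: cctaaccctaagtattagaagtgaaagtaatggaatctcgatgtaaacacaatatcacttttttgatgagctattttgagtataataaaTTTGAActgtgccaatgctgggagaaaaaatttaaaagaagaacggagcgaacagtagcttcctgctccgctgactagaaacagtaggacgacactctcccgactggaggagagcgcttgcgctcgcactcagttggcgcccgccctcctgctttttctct
CCNB2: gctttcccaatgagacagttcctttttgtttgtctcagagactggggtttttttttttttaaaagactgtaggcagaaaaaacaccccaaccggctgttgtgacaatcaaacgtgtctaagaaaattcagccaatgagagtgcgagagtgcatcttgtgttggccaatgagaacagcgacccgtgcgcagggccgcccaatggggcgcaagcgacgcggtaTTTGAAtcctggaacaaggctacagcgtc
KIF15: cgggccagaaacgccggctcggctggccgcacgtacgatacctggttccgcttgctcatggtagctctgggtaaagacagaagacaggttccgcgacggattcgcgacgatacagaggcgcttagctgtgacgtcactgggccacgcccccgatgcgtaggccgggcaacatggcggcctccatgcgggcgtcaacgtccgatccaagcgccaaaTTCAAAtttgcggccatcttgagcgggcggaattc
GCLM: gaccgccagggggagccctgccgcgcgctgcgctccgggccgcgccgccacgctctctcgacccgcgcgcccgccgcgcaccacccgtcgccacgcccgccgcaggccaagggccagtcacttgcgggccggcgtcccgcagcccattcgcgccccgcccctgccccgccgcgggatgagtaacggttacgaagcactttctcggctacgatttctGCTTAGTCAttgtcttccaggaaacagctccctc
TXNRD1: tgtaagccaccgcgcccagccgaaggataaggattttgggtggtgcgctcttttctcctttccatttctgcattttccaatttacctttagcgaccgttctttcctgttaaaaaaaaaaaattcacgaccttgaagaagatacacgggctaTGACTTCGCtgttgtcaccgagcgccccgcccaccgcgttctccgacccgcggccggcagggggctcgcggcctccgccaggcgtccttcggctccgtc

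TTTGAA was found in 12 of the 20 lower mitotic genes with a promoter entry (60%), and in 6 of the 12 other measured members of the list. It was in 13% of the promoters of 10151 measured genes and in 16.1% of all 27305. CCAAT was found in 16 of the 20 (80%) and in 11 of the other 12, against 41% of measured genes and 37% of all. Both motifs were thus common in the list whether or not a member was lower on TANGO. TGACNNNGC was found in 3 of 14 lower NRF2 list genes (21.4%) and in 4 of the 6 others, against 15.5% of measured genes and 13.2% of all. A match describes the letters and is not a measured binding site.

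Of 38 measured replication genes, 10 (26.3%) were at least 2-fold lower on TANGO and 1 higher, with a median of -0.63, and 36 lay below a log2 ratio of 0. TK1, thymidine kinase, read 212 on the TANGO siRNA array and 1568 on the MATE2 siRNA array, against 1594 to 2162 elsewhere. TYMS, thymidylate synthase, read 103 and 509, against 514 to 746, so in both genes TANGO was low and MATE2 lay near the others. PCNA, the sliding clamp, was at -1.46 and POLA1, a polymerase catalytic subunit, at 1.05. MCM2, MCM3 and MCM6 of the replicative helicase were within 2-fold, at -0.38, -0.27 and -0.36. With no background correction, 3 replication genes were still at least 2-fold lower.

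Of 26 histone genes 7 (26.9%) were lower and 2 higher, with a median of -0.18. H4C4 read 345 on TANGO and 2705 on MATE2, H4C3 1601 and 7595, and the variant H2AZ1 889.7 and 2754. Histone genes are near copies of each other, and their probes may not separate them. Of 32 genes of homologous recombination and the DNA damage response, 4 were lower and 1 higher, with a median of -0.03. RAD54L, a recombination motor, read 61.6 and 217, while RAD50, of the break-sensing MRN complex, read 509 and 176.

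Of 27 p53 target genes 2 were higher and 3 lower, with a median of 0.19. CDKN1A, the cyclin-dependent kinase inhibitor p21, read 7402 on TANGO and 3669 on MATE2, against 2110.2 to 2989 elsewhere, a 2.02-fold difference that falls under 2-fold when each array is scaled to its median. TP53INP1, a p53-induced nuclear protein, read 272 and 73.0, and GADD45A, a stress sensor, 1282 and 4417. Of 26 BCL2 family members and inhibitors of apoptosis, BNIP3 was higher, at 1068 against 264, and BIRC5, PMAIP1 and BIRC3 were lower.

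Of 37 genes of respiratory complex I, which passes electrons from NADH to ubiquinone, 9 (24.3%) were at least 2-fold lower on TANGO and 0 higher, with a median of -0.61, while 15 were lower with each array scaled to its median and 6 with no background correction. NDUFV3, an accessory subunit, read 93.1 on TANGO and 399 on MATE2, and NDUFA3 276 and 838. On the log2 scale the list lay 0.54 above the median of the other 4 arrays on MATE2 and 0.11 below it on TANGO. By the same measure MIA2 siRNA stood at 0.46, near MATE2, and LEMD1 siRNA at 0.11. MIA siRNA at -0.13 and control at -0.15 stood near TANGO. These 4 arrays, unlike TANGO and MATE2, are part of the median they are set against. The core subunits NDUFS1, NDUFV1 and NDUFV2 were between -0.16 and -0.01.

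Of 72 mitochondrial ribosomal protein genes 12 (16.7%) were lower and 1 higher, with a median of -0.32. MRPL42 read 88.7 on TANGO and 259 on MATE2, while MRPL9 read 758 and 268. Of 61 cytosolic ribosomal protein genes 2 (3.28%) were lower, under the 5.88% of all named genes, but 49 lay below 0 and the median was -0.31. That median was -0.61 when each array was scaled to its own median. RPS26, the most different, read 712 on TANGO and 2396 on MATE2.

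Of 39 measured interferon-stimulated genes, 8 (20.5%) were higher on TANGO and 1 lower, with a median of 0.30. IFI27, a mitochondrial interferon-induced protein, read 2809 on the TANGO siRNA array and 357 on the MATE2 siRNA array, against 1417 to 2131 elsewhere, and a second probe gave 1163 and 102. IFIT3, an antiviral RNA-binding protein, read 699 and 242, against 820.3 to 1229.6, and MX1, an antiviral GTPase, 274 and 109, against 199.9 to 359. In these 3 genes MATE2 was the lowest of the 6 arrays. STAT2, the interferon signal transducer, was lower on TANGO, at 95.5 against 236. With no background correction, 3 of the 39 were higher.

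The MHC class I list had 2 of 15 members lower and 0 higher. PSMB9, an immunoproteasome subunit, read 153 on TANGO and 446 on MATE2, against 771 to 1402 elsewhere, and HLA-E 146 and 414. The list of 16 cytokine and chemokine genes also holds receptors and enzymes. In it 2 were higher, the enzyme PTGS2 and the receptor IL6R, and 1 lower, the cytokine LIF. PTGS2, cyclooxygenase-2, which makes prostaglandins, read 964 on TANGO and 155 on MATE2, against 48.9 to 104 elsewhere. IL6R, the interleukin-6 receptor, read 188 and 50.6, while LIF, a cytokine of the same family of signals, read 178 and 479.6. Of 21 NF-kB feedback and target genes 0 were higher and 2 lower, SOD2 and BIRC3, and a second SOD2 probe read 51.1 and 57.1.

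Of 31 measured genes of glycolysis and the hypoxia response, 6 (19.4%) were at least 2-fold higher on TANGO and 2 lower, with a median of 0.44, and 27 lay above 0. With no background correction, 4 were higher. SLC2A1, the glucose transporter GLUT1, read 2086 on the TANGO siRNA array and 495 on the MATE2 siRNA array, against 311 to 953 elsewhere. EGLN1, a prolyl hydroxylase that senses oxygen, read 745 and 175, against 539 to 726. BNIP3, a mitophagy receptor, was given above and read 524 to 1737 on the other arrays. In both, as in the higher genes HILPDA, PFKP and PDK1, MATE2 was the lowest of the 6 arrays. ADM, adrenomedullin, was lower on TANGO, at 113 against 515, as was ALDOC, an aldolase, at 795 against 1637. LDHA, lactate dehydrogenase, was at 0.97 and GAPDH at 0.18 on the log2 scale. Both genes read lower on TANGO and on MATE2 than on any of the other 4 arrays.

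**Figure D5:**
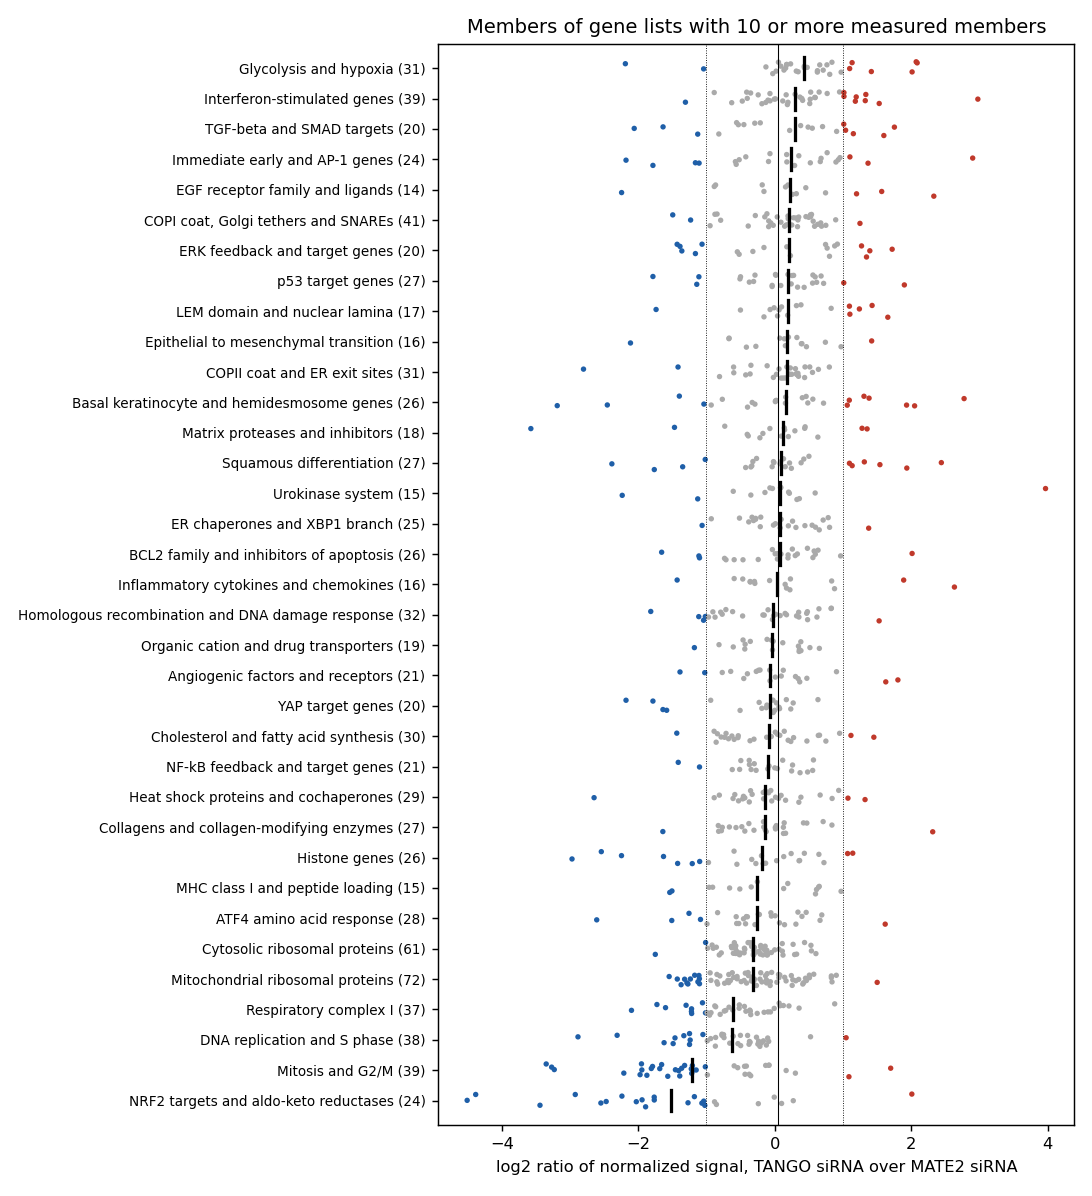
Log2 ratio of normalized signal, TANGO siRNA over MATE2 siRNA (horizontal), for measured members of each gene list with 10 or more of them, numbers in parentheses. Points are genes, red when at least 2-fold higher and blue when at least 2-fold lower on TANGO, and black bars are list medians, which run from -1.52 (NRF2 list) to 0.44 (glycolysis and hypoxia).

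Keratinocyte genes differed in both directions. Basal keratinocytes hold keratins, desmosomes and hemidesmosomes under the control of p63. Of 26 genes in a list drawn up for these, 7 (26.9%) were higher on TANGO and 4 (15.4%) lower. The list also holds KRT16 and KRT17, keratins that are not particular to basal cells. The higher genes included SOX2, a factor of squamous progenitors, at 1953 on the TANGO siRNA array and 285 on the MATE2 siRNA array, against 20.8 to 134 elsewhere. DSG3 and DSC3, cadherins of the desmosome, read 1613 against 389 and 1859 against 487, and TP63 itself read 1586 and 608. The lower genes included KRT14, the partner of KRT5, at 309 on TANGO and 2812 on MATE2, both below the 5354 to 16779.6 of the other arrays. KRT16 read 4378 and 11539, both above the 521 to 676 elsewhere, and KRT17 122 and 666, against 68.5 to 85.3.

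Of 27 squamous differentiation genes 6 (22.2%) were higher and 4 (14.8%) lower. S100A8, a calcium-binding protein of stressed epidermis, read 1608 on TANGO and 296 on MATE2, with 18.4 to 30.0 elsewhere, and IVL, involucrin of the cornified envelope, 198 and 67.8. PI3, the protease inhibitor elafin, read 419 and 1424, with 26.6 to 62.7 elsewhere, and SPRR3, a cornified envelope precursor, 454 and 1156, with 95.5 to 115. These 4 were above the other 4 arrays on both arrays, by unequal amounts. SPRR1B and KRT4 were also above the rest on both, at 6572 and 5652 and at 3508 and 4378, with less than 2-fold between the arrays in either gene. KLK10, a kallikrein, was lower on TANGO, at 322 against 1686.

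Genes of the early secretory pathway, in which the MIA3 protein acts, were near the background shares. Of 31 genes of the COPII coat and exit sites 0 were higher and 2 (6.45%) lower. TRAPPC2, a TRAPP tethering subunit, read 174 on TANGO and 1212 on MATE2, but its second probe read 365 and 186. SAR1A, the GTPase that starts the coat, read 423 and 1130.4, and the coat genes SEC23A, SEC24A and SEC31A were between 0.23 and 0.35. Of 41 COPI, tether and SNARE genes 1 was higher and 2 lower, GOLGB1 at 730.2 against 307, BET1 at 145 against 409.9 and USE1 at 346 against 813.

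Of 27 collagens and their modifying enzymes 1 was higher and 1 lower. COL4A6, a basement membrane collagen, read 434 on TANGO and 87.1 on MATE2, against 125 to 222 elsewhere, with a second probe at 268 and 53.4. LOX, the lysyl oxidase that crosslinks collagen, read 41.5 and 129. COL7A1, the anchoring fibril collagen, was at -0.77 and the collagen chaperone SERPINH1 at 0.42. Of 25 chaperones and XBP1-branch genes 1 was higher, SEC61A1, and 1 lower, SEC61B, both of the translocation channel, while HSPA5, the chaperone BiP, was dim, at 48.8 and 59.2.

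Of 28 ATF4 response genes 1 was higher and 4 (14.3%) lower. STC2, a secreted glycoprotein, read 309 on TANGO and 1887 on MATE2, with 87.0 to 130.5 elsewhere, and DDIT3, the stress factor CHOP, 512 and 1456, with 234 to 349. DDIT4, an inhibitor of mTORC1, read 2571 and 837, but its second probe read 414 and 471. Of 19 organic cation and drug transporters ABCC3 alone passed 2-fold, at 45.3 against 102. Of 30 cholesterol and fatty acid synthesis genes 2 were higher, SCD, a desaturase, at 4899 against 1789, and SREBF1, and 1 was lower, INSIG1, the retention protein of SREBP, at 203 against 548.

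Signalling targets were mixed. Of 20 genes that answer to ERK, 4 were higher, SPRY1, DUSP6, PHLDA1 and SPRED2, and 5 lower, LIF, EPHA2, DUSP5, FOSL1 and ETV4. DUSP6, an ERK phosphatase, read 362 on the TANGO siRNA array and 138 on the MATE2 siRNA array, and EPHA2, an ephrin receptor, 206 and 538. Second probes read 227 and 238 for FOSL1, 43.0 and 58.9 for SPRED2 and 123 and 75.9 for PHLDA1. With normexp, 3 of the 20 were higher and 2 lower. Of 24 immediate early genes 3 were higher and 4 lower. FOS, the AP-1 subunit, read 1190.3 on TANGO and 159 on MATE2, against 321 to 2285 elsewhere, and KLF6 605 and 234. The lower genes were CCN1, a matrix protein, at 108 and 487, GADD45A at 1282 and 4417, FOSL1 at 207 and 464 and FOSB at 71.3 and 154.

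Of 20 YAP targets 0 were higher and 4 (20%) lower, CCN1 at 108 against 487, AMOTL2 at 152 against 472, IGFBP3 at 312 against 936, and GADD45A. YAP is the effector of the Hippo pathway that senses cell contact. Of 20 TGF-beta and SMAD targets 5 were higher and 3 lower. ID1 and ID3, inhibitors of helix-loop-helix factors that answer to BMP signals, read 1170.2 against 347 and 3238 against 1068, with 117 to 174 and 146 to 523 on the other arrays. FST, the activin antagonist follistatin, read 103 and 429, against 500.1 to 681. The median of this list, 0.30, was -0.29 when a good flag on 1 of the arrays was enough.

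In the urokinase system, which activates plasmin at the cell surface, PLAT was higher and 2 of 15 genes were lower. PLAUR, the urokinase receptor, read 159 on TANGO and 748 on MATE2. For PLAUR the other arrays fell at 142 and 152 on LEMD1 and MIA2 siRNA and at 645 and 647 on MIA siRNA and control. Of 18 matrix proteases and inhibitors TIMP1 was higher, at 2038 against 797, MMP1, a collagenase, at 1861 against 766, and MMP7 and ADAMTS15 were lower.

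Of 14 EGF receptor family genes 3 were higher, LRIG3, LRIG1 and ERBB2, and NRG1 was lower. LRIG1, a feedback inhibitor of the receptors, read 264 on TANGO and 88.9 on MATE2, with 22.8 to 43.0 elsewhere, ERBB2 569 and 248, with 674 to 973, and NRG1, neuregulin, 54.8 and 259.7. Of 21 angiogenic factors and receptors EFNA1 and EFNB2 were higher, at 736 against 211 and 276 against 89.3, and EPHA2 and FGFR1 lower. Among 16 epithelial and mesenchymal transition markers 1 was higher and 1 lower, with a median of 0.18. GRHL2, an epithelial factor, was higher, at 322 against 120.2, and TWIST1, a mesenchymal factor, lower, at 45.8 against 198. The other members, within 2-fold, went both ways. On the log2 scale the mesenchymal factors SNAI2 and SNAI1 were at 0.97 and 0.74, and the epithelial claudins CLDN4 and CLDN7 both at -0.67. The epithelial splicing factors ESRP1 and ESRP2 were at 0.40 and 0.20.

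Of 17 genes of LEM domain proteins and the nuclear lamina 5 (29.4%) were higher and 1 lower. Besides LEMD1 these were LEMD2, at 3409.5 on TANGO and 1442 on MATE2, LBR, the lamin B receptor, at 123 and 45.7, LMNA, lamin A, at 2381 and 1109, and SUN2, a nuclear membrane anchor, at 2536 and 1187. TMPO, the lamina protein LAP2, was lower, at 77.8 and 259.6. The second probes of LMNA read 143 and 488 and 63.6 and 71.3, that of LEMD2 285 and 234 and that of TMPO 82.1 and 82.9, so the direction of LMNA and the size of LEMD2 and TMPO differed by probe. With each array scaled to its median, 2 of the 17 were higher. Of 29 heat shock genes 2 were higher, DNAJA1 and HSPH1, and 1 lower, BAG2, a cochaperone, at 117 against 731. A second DNAJA1 probe read 476 and 498. Of 6 measured MAGE and other cancer-testis genes LEMD1 was higher and MAGEA4 lower.

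Second probes show how far a ratio depends on the probe. Of 174 genes higher by the taken probe that had another good probe, 43 were at least 2-fold higher by it too, 130 had the same sign and 5 were at least 2-fold the opposite way. Of 99 lower genes 20 were at least 2-fold lower by the second probe, 65 had the same sign and 4 were opposite. Where the second probe was also bright, 37 of 90 higher genes and 17 of 54 lower genes passed 2-fold again.

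Ratios also moved with the place on the slide. Over 8 parts of the slide the median log2 ratio of the probes ran from -0.22 to 0.28. After each ratio was set against the median of its part of the slide, 16 of the 24 NRF2 list genes and 23 of the 39 mitotic genes were still at least 2-fold lower. The share of probes at least 2-fold higher was 0.852% among the dimmest of 10 equal groups by signal and 3.45% to 5.97% in the others. Of 159 genes named by rule with a 2-fold difference, 131 kept it with normexp, 128 with no background correction and 132 with 50 added to the signal. Of those in the text, ABCC3, ALDOC, BIRC3, CDC25B, FGFR1, FOSB, FOSL1, LBR, LOX, POLA1, SEC61B, SPRED2 and STAT2 lost it in all 3 ways, and DUSP5, HSPH1, IVL and MX1 in at least 1 of them.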

How the data were processed

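RNA from HSC3 cells was hybridized to 6 CodeLink arrays, 1 a group, and per the file headers spots were read with CodeLink Expression Analysis 5.0.0.31312. The deposited scanner intensity of a spot is its mean brightness less the median of its local background, not normalized. Per the methods, the authors quantile normalized the intensities with Microarray Data Analysis Tool 3.2, and 100% of the unmasked values of their table were within 1% plus 1 of the rebuilt ones.

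Of 54359 spots, 53423 were gene probes, and 320 masked on any array were left out. Quantile normalization was run on the 6 arrays together, with values floored at 1 before log2 (Python 3.11.15, pandas 2.3.3, numpy 2.4.6; R 4.3.3 with limma 3.58.1 for normexp). Of the probes kept, 23960 had 1 gene symbol, 23311 from the platform annotation updated to RefSeq symbols and 649 by RefSeq accession, 898 had several genes and 28245 none. A gene was taken by the good probe with the highest mean log2 signal. A difference was counted from 2-fold, and no p-value was computed. Counting was tried on simulated arrays built from the control array with known folds. Their noise was set lower than the spread of this pair, so the trial checks the counting and not the error of a call.

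The text names the 12 largest ratios each way among genes above a signal of 147 on either array, the siRNA targets, up to 4 members each way of each of 37 gene lists, the 3 largest bounds each way and cell markers. Other members were named after their values were seen. A bound is the good signal over the higher of the near-background signal and the lowest good signal, 31.4. The lists and members were chosen with earlier results of these data known. The number of arrays limits the precision. The alternatives changed the normalization, background correction, source table, flag filter, signal filter, added signal, probe rule, fold and, chosen after seeing the data, the part of the slide. No column belonged to an unmapped sample.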

Additional observations from a re-analysis of the deposited data

How the results depend on the processing

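No paired analysis was possible because each group holds 1 array. Of 159 named genes at least 2-fold apart, 115 stayed so under each of the alternatives that gave a value. LMNA was at a log2 ratio of -0.28 when its good probes were averaged, against 1.10 by the taken probe. The median of the NRF2 list ran from -1.77 to -1.36 and that of the mitosis list from -1.39 to -0.83.

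With normexp, 641 probes were higher and 683 lower, with 498 and 447 genes, a mitosis median of -0.92, and 105 higher genes with MATE2 below the other 4 arrays, 72 with TANGO above and 66 lower genes with TANGO below. With no background correction the probes were 582 and 620, the genes 456 and 411, the mitosis median -0.83, and the placed genes 91, 67 and 60, with 78 lower genes with MATE2 above. With 50 added to the signal the probes were 669 and 703, the genes 516 and 458, and the placed genes 111, 74 and 69. With each array scaled to its median, 68 higher genes had TANGO above, and the medians were -0.62 for MHC class I and -0.61 for cytosolic ribosomal proteins.

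With a good flag on 1 of the arrays enough, 2276 probes were higher and 2479 lower, 1179 genes were lower, and the TGF-beta median was -0.29. With no flag filter the probes were 6459 and 6513, the genes 2097 and 1944, and the medians -0.21 for TGF-beta, 0.13 for MHC class I and -0.475 for the MIA family. At 1.5-fold the probes were 3553 and 3498 and the genes 2232 and 1864, and at 3-fold 320 and 307 and 237 and 200. The cause was not tested. Spots near background, 21279 on both arrays, limit what could be measured.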
